A study of Mus musculus with 6 samples.

Results

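Transcripts of 10 genes of airway secretion and mucosal defence were followed in RNA from B cells of mouse lung, out of 21774 mRNA genes represented in the deposited table. The members were taken by symbol: the secretoglobins Scgb1a1, Scgb3a1 and Scgb3a2, the BPI-fold proteins Bpifa1 and Bpifb1, the gel-forming mucins Muc5b and Muc5ac, the antimicrobial proteins Ltf and Reg3g, and the antibody transporter Pigr. Each was represented by its transcript with the highest mean value, and all 10 had a mean value of at least 1, the level required for testing among 15759 genes. The study asked how lung B cells of mice with severe asthma differ from those of control mice, in connection with lymphoid tissue that forms along the bronchi. B cells were pulled from dissociated lung with magnetic beads against B220, a surface marker of B cells, and 3 libraries were made for each group of wild-type mice. The severe asthma group was sensitised on days 0 to 2 through the trachea with lipopolysaccharide (10 µg per dose) together with house dust mite extract (25 µg per dose) in 35 µl of buffered saline, and was challenged with the extract alone on the 8 days from day 7 to day 14. The control group received saline only. The labels give no strain, age or sex, and do not say that each library came from a separate animal or pool, so every p-value refers to the spread among these libraries alone.

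Airway secretory cells, called club cells in the mouse, line the conducting airways and release secretoglobins, antimicrobial proteins and mucins into the fluid that covers the epithelium. Gel-forming mucins trap inhaled particles, while lactoferrin, the BPI-fold proteins and Reg3g act on bacteria in that fluid. Pigr carries polymeric IgA, which B-lineage cells secrete, across the epithelium to the airway surface. None of the members is known as a defining gene of B cells.

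The B cell label was checked first. Summed over 10 B cell markers, adjusted read counts were 149100 to 210600 in the control libraries and 207300 to 225800 in the severe asthma libraries. Adjusted read counts are the deposited values, in which the authors' reads had been brought to a common library size. Markers of other lung cells were present beside them. A set of 13 general epithelial markers summed to 2336 to 4377 in control and 1357 to 1699 in severe asthma libraries, 10 endothelial markers to 18940 to 53140 and 5587 to 9162, and 12 macrophage markers to 13040 to 31550 and 106700 to 215900. The epithelial sums include St14, which rose. It gave 704 of 1699, 770 of 1530 and 723 of 1357 in severe asthma libraries 1 to 3, and 433, 485 and 443.5 in control libraries 1 to 3. Control library 1 stood apart from the other controls, with alveolar type II markers summing to 77880 against 26200 and 25540, and fibroblast markers to 18310 against 5267 and 6733. Read totals over the mRNA genes were 16498219 to 18054903 per library.

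Of the 10 members, 9 fell in severe asthma and 0 rose at an adjusted p under 0.05 with limma, on a background of 14.4% of all tested genes that fell and 20.7% that rose. At an unadjusted p under 0.05 the counts were also 9 and 0, and edgeR, DESeq2 and limma-voom on the recovered reads gave 9 and 0 as well. Of these, 8 fell at least 2-fold, against 10.6% of all tested genes. The median log2 fold change of the members was -2.19, beside 0.06 over all tested genes, and the 9 falls ranged from -4.54 for Bpifa1 to -0.71 for Pigr. In 9 members every severe asthma library lay below every control library, as it did in 21.6% of all tested genes. The remaining member, Muc5ac, was close to the limit of detection in both groups. For each member without overlap the exact two-sided permutation test gave p = 0.1, the smallest that 3 libraries against 3 allow. These are bulk libraries, so fewer cells of a type and less RNA per cell cannot be told apart.

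**Figure D1:**
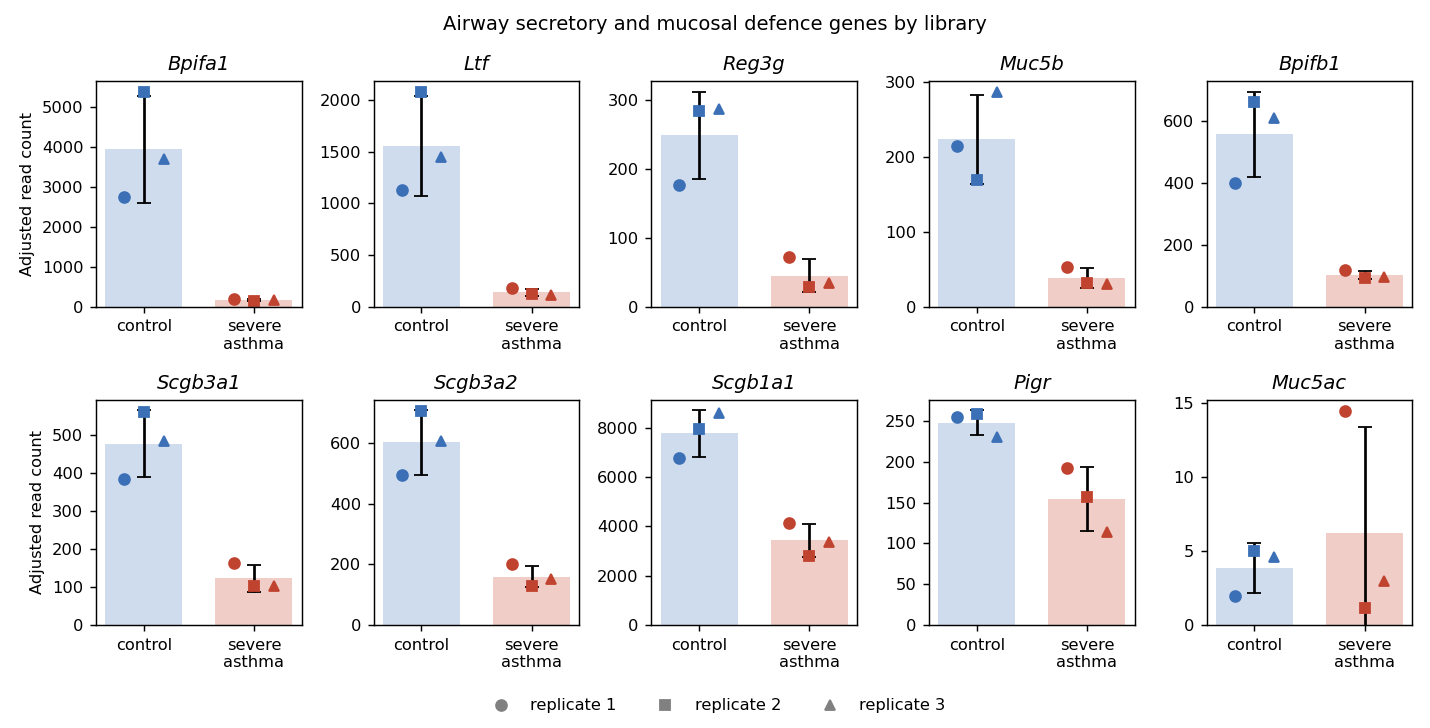
Adjusted read counts of the 10 members in each library, with 1 panel per gene on a linear axis that starts at 0. Bars are group means, whiskers are 1 SD over 3 libraries (cut at 0 for Muc5ac), and symbols are the libraries by replicate number. In 9 panels the severe asthma symbols lie below the control symbols, and in the Muc5ac panel the highest symbol is the severe asthma library 1 at 14.5.

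The windows around the start sites of the members with the largest falls, Bpifa1 and Ltf, and of the member with the smallest fall, Pigr, are printed for comparison, since these mark the ends of the range over which the members moved. Each runs from 250 bases before to 50 bases after the RefSeq start site on GRCm38.p6 and on the plus strand: Bpifa1 at chr2:154142630-154142929, Ltf at chr9:111019042-111019341 and Pigr at chr1:130826434-130826733. Capitals mark matches, on either strand, to the core letters CTCAAG (Nkx2-1, a transcription factor of lung epithelium), TGTTTAC (forkhead factors), TTNNGCAA (C/EBP factors), TTCNNNGAA (STAT factors) and TATAAA (the TATA box).
Bpifa1: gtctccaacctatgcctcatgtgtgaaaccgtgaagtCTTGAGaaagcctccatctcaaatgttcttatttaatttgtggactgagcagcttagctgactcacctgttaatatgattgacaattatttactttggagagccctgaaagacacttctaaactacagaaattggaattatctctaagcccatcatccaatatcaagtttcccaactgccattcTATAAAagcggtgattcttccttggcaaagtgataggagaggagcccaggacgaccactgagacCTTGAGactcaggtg
Ltf: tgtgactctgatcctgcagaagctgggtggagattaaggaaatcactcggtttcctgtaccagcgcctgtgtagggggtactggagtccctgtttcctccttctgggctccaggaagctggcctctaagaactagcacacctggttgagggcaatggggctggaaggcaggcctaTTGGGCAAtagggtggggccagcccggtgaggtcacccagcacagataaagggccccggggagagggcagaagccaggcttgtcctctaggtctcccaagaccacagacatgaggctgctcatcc
Pigr: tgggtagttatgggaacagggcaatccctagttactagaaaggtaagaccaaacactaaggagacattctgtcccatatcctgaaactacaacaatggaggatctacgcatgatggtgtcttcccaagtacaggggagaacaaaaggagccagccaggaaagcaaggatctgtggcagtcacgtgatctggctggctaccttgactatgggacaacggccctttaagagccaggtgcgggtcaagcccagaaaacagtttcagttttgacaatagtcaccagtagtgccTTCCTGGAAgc
The Bpifa1 window held CTTGAG, the Nkx2-1 letters on the other strand, at positions -213 and 36, and TATAAA at -29, counted from the first transcribed base as 1. In the Ltf window the one match was TTGGGCAA at -75, and in the Pigr window it was TTCCTGGAA at 40. No printed matches overlapped each other. Of 32851 promoter windows of the same length, 15.9% held the Nkx2-1 letters, 3.65% the forkhead letters, 10.8% the C/EBP letters, 8.3% the STAT letters and 13.6% the TATA letters. A match is a description of the sequence and not a measured binding site.

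The secretoglobins are small proteins secreted in quantity by club cells. Scgb1a1, the club cell secretory protein (chr19:9083642-9087956, minus strand, mm10), had adjusted read counts of 6757, 7926 and 8609 in control libraries 1 to 3 and of 4119, 2797 and 3366 in severe asthma libraries 1 to 3. The groups did not overlap, and the highest severe asthma library was library 1. The mean went from 7764 ± 937 to 3427 ± 663 (SD, n = 3 per group), a log2 fold change of -1.19 (SE 0.15, limma adjusted p = 0.00241), or 2.28-fold lower. Scgb3a1, a secretoglobin of the larger airways (chr11:49663595-49665118, plus strand), read 385, 561 and 485 in control and 164, 104 and 102 in severe asthma. The difference on the log2 scale was -1.96 (SE 0.22, limma adjusted p = 0.00129). Scgb3a2, a secretoglobin that marks club cells along the bronchioles, read 494, 705 and 606 in control and 199, 129 and 151 in severe asthma, with a log2 fold change of -1.91 (SE 0.19, limma adjusted p = 0.000793). These falls were 3.9-fold for Scgb3a1 and 3.77-fold for Scgb3a2, and in both the lowest control library lay above the highest severe asthma library. Of 37 other genes named Scgb in the table, 35 were listed at 0 in every library.

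The BPI-fold proteins are relatives of the bactericidal permeability-increasing protein that are secreted onto the airway surface. Bpifa1, also called SPLUNC1 (chr2:154142880-154149217, plus strand, mm10), had adjusted read counts of 2752, 5392 and 3693 in the control libraries and of 185, 141 and 165 in the severe asthma libraries. Control library 1 was the lowest control and still stood far above every severe asthma library. The log2 fold change was -4.54 (SE 0.25, limma adjusted p = 0.000357), a 23.2-fold lower level and the 19th largest fall among the tested genes. Bpifb1, also called LPLUNC1 (chr2:154190818-154220343, plus strand), read 400.1, 659 and 609 in control and 117, 92.8 and 95.3 in severe asthma. It fell 5.33-fold, with a log2 fold change of -2.42 (SE 0.20, limma adjusted p = 0.000487) and no overlap between the groups. The RefSeq annotation places Bpifa1 and Bpifb1 41.6 kb apart on chromosome 2, with Bpifa5 as the only gene wholly between them, and Bpifa5 was listed at 0 in every library. Among the 12 other Bpif genes measured, 3 could be tested. Bpifb2 averaged 9.69 in control and 12.8 in severe asthma (limma adjusted p = 0.497), and Bpifb5 averaged 9.68 and 1.36 (limma adjusted p = 0.0645).

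Muc5b, the gel-forming mucin that mouse airways make without challenge (chr7:141839059-141873089, plus strand, mm10), had adjusted read counts of 215, 169 and 287 in the control libraries and of 53.2, 32.1 and 29.8 in the severe asthma libraries. The groups did not overlap, and the mean fell 5.78-fold (log2 fold change -2.53, SE 0.30, limma adjusted p = 0.00149). Muc5ac, the gel-forming mucin known for its induction in allergic airways (chr7:141788958-141819227, GRCm38.p6), rested on few reads. The recovered whole reads were 2, 5 and 5 in control and 14, 1 and 3 in severe asthma. Severe asthma library 1 had the most reads and library 2 the fewest, so the groups overlapped. The log2 fold change was 0.14 (SE 0.76, limma adjusted p = 0.906; exact permutation p = 1), and over the alternative settings it lay between -0.99 and 0.76, which is a range with both signs. Without severe asthma library 1 it was -0.66. A difference in Muc5ac was not detectable at this depth and spread. The mucin genes lie 19.8 kb apart on chromosome 7 with no annotated gene between them. Of 9 other tested genes whose symbol begins with Muc and a digit, 6 fell, and 2 did without severe asthma library 2 or 3. Among them was the transmembrane mucin Muc4 (135 ± 39.0 to 24.4 ± 3.94, log2 fold change -2.39, limma adjusted p = 0.00171). Muc1, another transmembrane mucin, went from 498 ± 276 to 110.4 ± 64.5 (-2.18, limma adjusted p = 0.0256), but its adjusted p was 0.0527 without control library 1, 0.0883 without severe asthma library 2 and 0.0864 without severe asthma library 3.

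Ltf encodes lactoferrin, an iron-binding protein of secretions and of neutrophil granules (chr9:111019292-111042766, plus strand, mm10). Its adjusted read counts were 1128, 2081 and 1447 in control and 179, 122 and 115 in severe asthma. The lowest control library was several times the highest severe asthma library. Lactoferrin transcripts fell about 11-fold (log2 fold change -3.46, SE 0.26, limma adjusted p = 0.000711). Reg3g, a C-type lectin that kills Gram-positive bacteria (chr6:78466269-78468874, minus strand), read 176, 284 and 286 in control and 71.9, 27.9 and 33.7 in severe asthma. It fell 5.83-fold (log2 fold change -2.54, SE 0.38, limma adjusted p = 0.00351), and severe asthma library 1 was more than double the other severe asthma libraries. Its paralog Reg3b averaged 5.09 and 1.38 (limma adjusted p = 0.263).

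Because neutrophils also make lactoferrin, their markers were read beside it. Of 12 tested neutrophil markers 2 rose and 2 fell (median log2 fold change -0.04), beside 20.7% and 14.4% of all tested genes. The summed adjusted read counts of the neutrophil markers were 466 to 760.0 in control and 586 to 684 in severe asthma. S100a9, a calcium-binding protein abundant in neutrophils, fell without overlap from 131 ± 20.1 to 63.0 ± 1.35 (log2 fold change -1.03, limma adjusted p = 0.00816), and the gelatinase gene Mmp9 fell from 58.0 ± 25.2 to 22.0 ± 4.42 (-1.30, limma adjusted p = 0.0302). The Mmp9 call was lost without control library 3 (adjusted p = 0.0965) or without severe asthma library 1 (0.0652), 2 (0.11) or 3 (0.072). The risen markers were Mmp8 and Csf3r, both higher without overlap. Mmp8 went from 17.4 ± 15.59 to 92.05 ± 22.61 (2.63, limma adjusted p = 0.01115). Csf3r went from 107.6 ± 23.39 to 179.7 ± 11.26 (0.75, limma adjusted p = 0.01995). Neither rise was called without severe asthma library 2 or 3. Elane, the neutrophil elastase gene, was listed at 0 in every library, and the granule gene Camp was at 0 in the control libraries and at 0.03 to 3.98 in the severe asthma libraries. Elane and Camp were singled out after their values were seen. The part of neutrophil RNA in the lactoferrin fall was not tested.

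Pigr, the polymeric immunoglobulin receptor (chr1:130826684-130852249, GRCm38.p6), had adjusted read counts of 255, 259 and 231 in control and of 192, 157 and 114 in severe asthma. The groups did not overlap, with the lowest control at 231 and the highest severe asthma library at 192. Its fall was 1.64-fold (log2 fold change -0.71, SE 0.20, limma adjusted p = 0.0269). That call was lost without control library 2 (adjusted p = 0.0608), control library 3 (0.0551), severe asthma library 2 (0.0833) or severe asthma library 3 (0.0768). In the authors' deposited table of all mRNA transcripts its q-value was 0.097, and Pigr and Muc5ac (q = 0.827) were the members left out of the authors' deposited table of 2977 called genes, which holds the other 8.

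Levels were compared between genes only per length of the represented transcript. In control libraries the order began with Scgb1a1 at 16310 ± 1968 adjusted reads per kb (SD, n = 3) and Bpifa1 at 3568 ± 1210 per kb. Scgb3a2 followed at 1040.0 ± 183 per kb, Scgb3a1 at 798 ± 147 per kb and Ltf at 566 ± 177 per kb. Scgb3a1 overlapped with Scgb3a2 and with Ltf, and Ltf lay above the next gene, Bpifb1, without overlap. Bpifb1 at 327 ± 80.9 per kb and Reg3g at 323 ± 81.8 per kb could not be separated, and Pigr at 64.5 ± 3.93 per kb and Muc5b at 14.96 ± 3.98 per kb lay below them without overlap. In severe asthma libraries Scgb1a1 remained first, at 7200.0 ± 1394 per kb, while Bpifa1 had dropped to 148 ± 19.9 per kb, below Scgb3a2 (277 ± 62.3 per kb) and Scgb3a1 (206 ± 58.9 per kb). Ltf was lower still, at 50.5 ± 12.7 per kb. There it overlapped with Bpifb1 (59.8 ± 7.82 per kb), Reg3g (57.7 ± 31.0 per kb) and Pigr (40.1 ± 10.2 per kb). Muc5b stood at 2.56 ± 0.86 per kb. Muc5ac was last in both groups, at 0.467 ± 0.201 and 0.751 ± 0.874 per kb.

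The members also varied together within the groups. Severe asthma library 1 had the highest level of its group in 10 of 10 members. Control library 1 had the lowest control level in 8 of 10 members, although it had the highest control sums of alveolar, endothelial, fibroblast, ciliated and general epithelial markers. Its ciliated sum was mostly Tppp3 (966 of 1249). Among the controls Foxj1 and Rsph1 were highest in control library 3, and Ccdc153 and Dynlrb2 in control library 1. Sums of lists closer to the members were also highest in control library 1. The other club cell genes summed to 10010 in control library 1 against 6361 and 6040, and the goblet cell and mucus genes to 1734 against 1110 and 1202. Single club cell genes differed. Cyp4b1 (3123 against 1019 and 955), Cbr2 and Aldh1a1 weighed most in that library's sum and were highest in it. Cyp2f2 (1192 against 1730 and 1635), Cyp2a5, Lypd2, Gabrp, Chad and Cldn10 were lowest in it, as most members were. Muc1 weighed most in its goblet sum (815 against 357 and 321). The deviation of control library 1 from the control mean was -0.46 for Bpifa1, -0.41 for Ltf and -0.19 for Scgb1a1 on the log2 scale. The basal cell marker sums were 437, 544 and 473 in control and 191, 164 and 184 in severe asthma. The lowest control sum was that of control library 1, as in most members, but single basal markers differed. Only Krt15 (129.7 against 218 and 155.4) and Krt17 were lowest in it. Krt5 and Aqp3 were lowest in control library 3, Ngfr in control library 2, and Trp63 was highest in control library 1. Without control library 1 the members' count was again 9 fallen, at a median of -2.32 on the log2 scale, and without both libraries numbered 1 it was 9, with a median of -2.54. For alveolar type II markers the count went from 6 fallen of 10 (median -2.82) to 2 (median -2.23) without control library 1, to 1 without severe asthma library 2 and to 0 without severe asthma library 3, where 6 fell at an unadjusted p under 0.05. For endothelial markers it went from 10 of 10 (median -3.27) to 3 without control library 1 (median -2.74). It went to 1 without severe asthma library 2 or 3, while 10 of 10 fell at an unadjusted p under 0.05 in each of these fits. Without both libraries numbered 1, the count was 7 for alveolar type II markers (median -2.82) and 9 for endothelial markers (median -3.33).

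**Figure D2:**
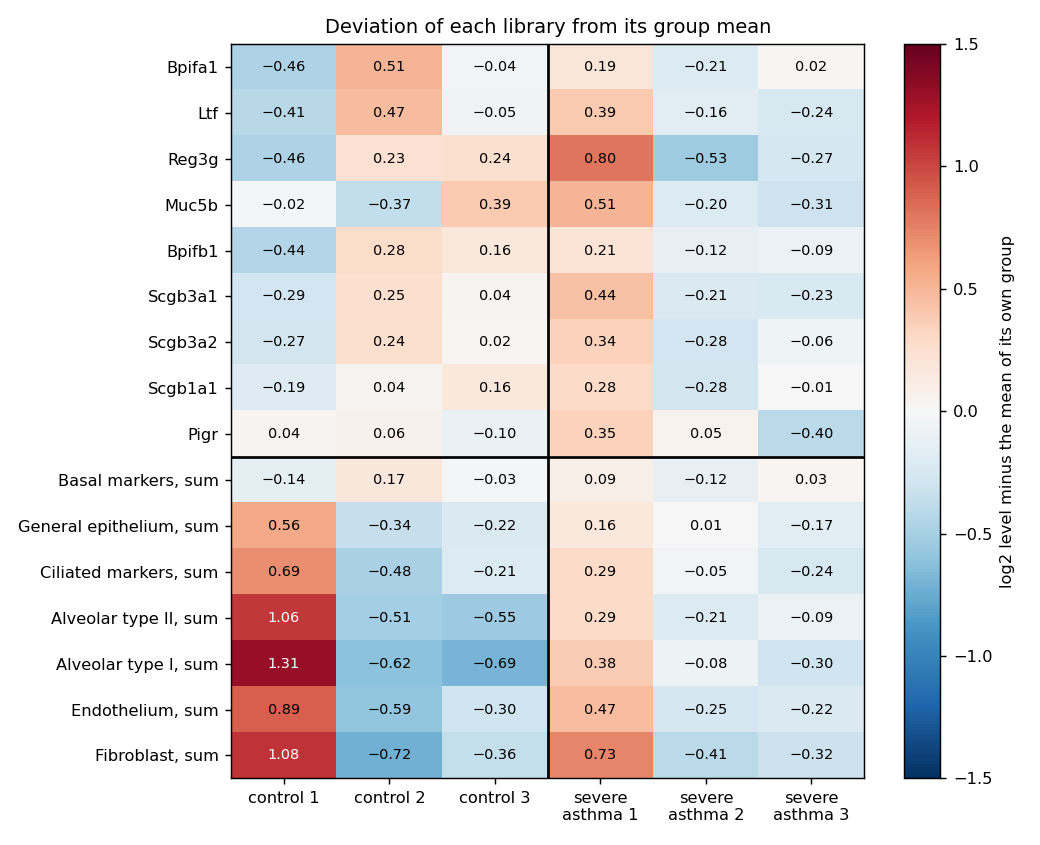
Deviation of each library from the mean of its own group on the log2 scale, for 9 members (upper rows; Muc5ac, with its few reads, is not drawn) and for the summed markers of basal, general epithelial, ciliated, alveolar type II, alveolar type I, endothelial and fibroblast cells (lower rows). Red is above and blue below the group mean. Control library 1 is below its mean for Bpifa1 (-0.46) and above it for the alveolar type II sum (1.06), and severe asthma library 1 is above its mean in every row drawn.

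The falls differed in size between members, and this was measured as the log2 ratio of 1 gene to another within a library. Relative to Scgb1a1, Bpifa1 was at -1.30, -0.56 and -1.22 in the control libraries and at -4.47, -4.30 and -4.35 in the severe asthma libraries, a difference of -3.35 with no overlap. The same ratio was lower without overlap for Ltf (difference -2.27), Reg3g (-1.35), Muc5b (-1.34), Bpifb1 (-1.23), Scgb3a1 (-0.77) and Scgb3a2 (-0.72), each at the smallest exact two-sided permutation p of 0.1. Pigr to Scgb1a1 differed by 0.48 and overlapped (exact permutation p = 0.2). Muc5ac to Scgb1a1 was higher by 1.33 without overlap (exact permutation p = 0.1), on the few reads given above. These are 9 ratios to Scgb1a1, none of which can pass 0.05 in this design.

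Another pair of reference genes, picked with earlier results known, set the members against an epithelial marker and a club cell gene. Epcam, a surface protein of most epithelial cells, read 220.3, 121 and 152 in control and 95.1, 91.7 and 83.3 in severe asthma (log2 fold change -0.82, SE 0.24, limma adjusted p = 0.032). That fall was smaller than the median of the 13 general epithelial markers (-1.92). A lower ratio to Epcam is therefore not by itself a fall beyond epithelial RNA. Ratios to other markers of that list were not computed. Relative to Epcam, Scgb1a1 differed by -0.37 (exact permutation p = 0.3) and Pigr by 0.11 (exact permutation p = 0.8), with overlap in both. Bpifa1 differed by -3.72 and Ltf by -2.64 relative to Epcam, and Reg3g (-1.72), Muc5b (-1.71), Bpifb1 (-1.60), Scgb3a1 (-1.14) and Scgb3a2 (-1.09) were also lower, each without overlap and at p = 0.1 in the exact permutation test. Cyp2f2, a cytochrome P450 of club cells, went from 1519 ± 288 to 349.5 ± 67.6 (log2 fold change -2.12, SE 0.18, limma adjusted p = 0.000753). Relative to Cyp2f2, Scgb3a1 differed by 0.15 with overlap (exact permutation p = 0.3), while Scgb1a1 was higher by 0.93 and Pigr by 1.40 without overlap (exact permutation p = 0.1 for each). Bpifa1 differed by -2.42 and Ltf by -1.34 against this club cell gene, again without overlap and at an exact permutation p of 0.1. The others stayed closer to it: Reg3g (-0.43) and Muc5b (-0.41) overlapped, each at an exact permutation p of 0.3, while Bpifb1 (-0.30) and Scgb3a2 (0.20) did not overlap, each at an exact permutation p of 0.1.

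**Figure D3:**
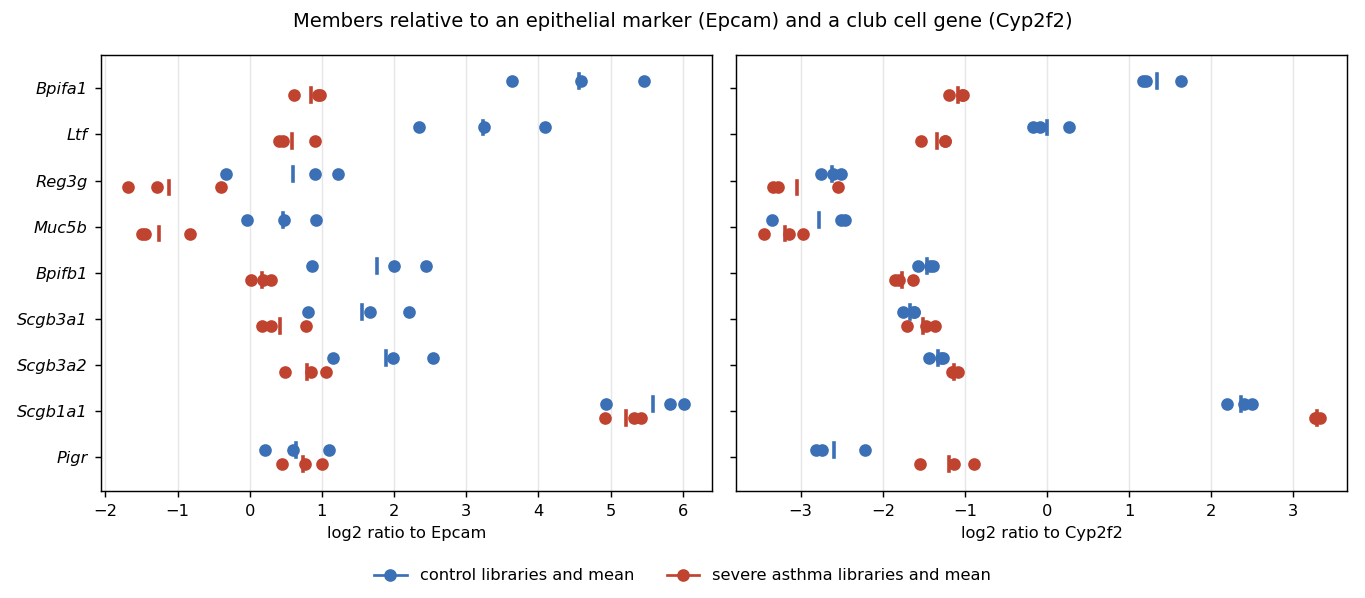
Log2 ratio of 9 members to Epcam (left) and to Cyp2f2 (right) in each library, with blue points for control, red points for severe asthma and short lines for the group means. Bpifa1 and Ltf separate the groups in both panels, Scgb1a1 overlaps relative to Epcam and is higher in severe asthma relative to Cyp2f2, and Pigr overlaps relative to Epcam.

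Other genes of the same cells were read from lists. Of 14 tested further club cell genes, 12 fell, and the median log2 fold change was -2.16. Besides Cyp2f2 these included Cyp2a5, a second cytochrome P450 (124 ± 22.3 to 17.9 ± 2.56, -2.72, limma adjusted p = 0.000771), and the sulfotransferase Sult1d1 (50.4 ± 19.6 to 4.49 ± 0.72, -3.17, limma adjusted p = 0.00189). Lypd2 went from 59.3 ± 5.49 to 11.01 ± 1.21 (-2.33, limma adjusted p = 0.00192). Of 16 goblet cell and mucus genes 8 fell and 2 rose, Gcnt3 and Galnt12 (median -1.89), and neither rise was called by DESeq2 or after scaling by total reads, while 1 was called without control library 1. The falls of Muc1, Muc4, Muc16 and Muc20 are also counted with the Muc genes above. Clca1 (-0.19, limma adjusted p = 0.569) and Tff2 (-0.45, limma adjusted p = 0.381) overlapped between the groups. The 8 falls went to 3 without severe asthma library 2 and to 2 without severe asthma library 3. Fcgbp, a mucus protein that binds the gel, fell from 50.6 ± 0.56 to 13.5 ± 6.66 (-1.92, limma adjusted p = 0.00905). Of 17 transcription factors of airway epithelium 9 fell (median -1.68), or 4 without severe asthma library 2. Among them were Grhl2 (-3.04, limma adjusted p = 0.00343), Foxa1 (-2.58, limma adjusted p = 0.00508) and Elf3 (-2.37, limma adjusted p = 0.0044). Of 7 basal cell markers 5 fell (median -2.33), and the basal keratin Krt15 fell from 168 ± 45.4 to 16.2 ± 2.23 (-3.27, limma adjusted p = 0.000522). Of 13 general epithelial markers 8 fell and 1 rose (median -1.92), with Krt8 at -2.17 (limma adjusted p = 0.00148), Krt19 at -1.92 (limma adjusted p = 0.00163) and the protease gene St14 risen at 0.69 (limma adjusted p = 0.00166). Of 13 markers of ciliated cells 1 rose and 1 fell (median -0.73), and with 1 library left out 0 to 3 fell. The general epithelial, ciliated and basal marker sums were lower in severe asthma, as most members were. Tppp3 weighed most in the ciliated sum. Of the 13 single ciliated markers 3 were lower without overlap, against 21.6% of all tested genes, 2 were higher without overlap, and the rest overlapped. Within the controls, of the general epithelial, ciliated and basal sums only the basal sum was lowest in control library 1, as most members were. Of the single basal markers only Krt15 and Krt17 were. The part of epithelial RNA in the members' falls was not tested.

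**Figure D4:**
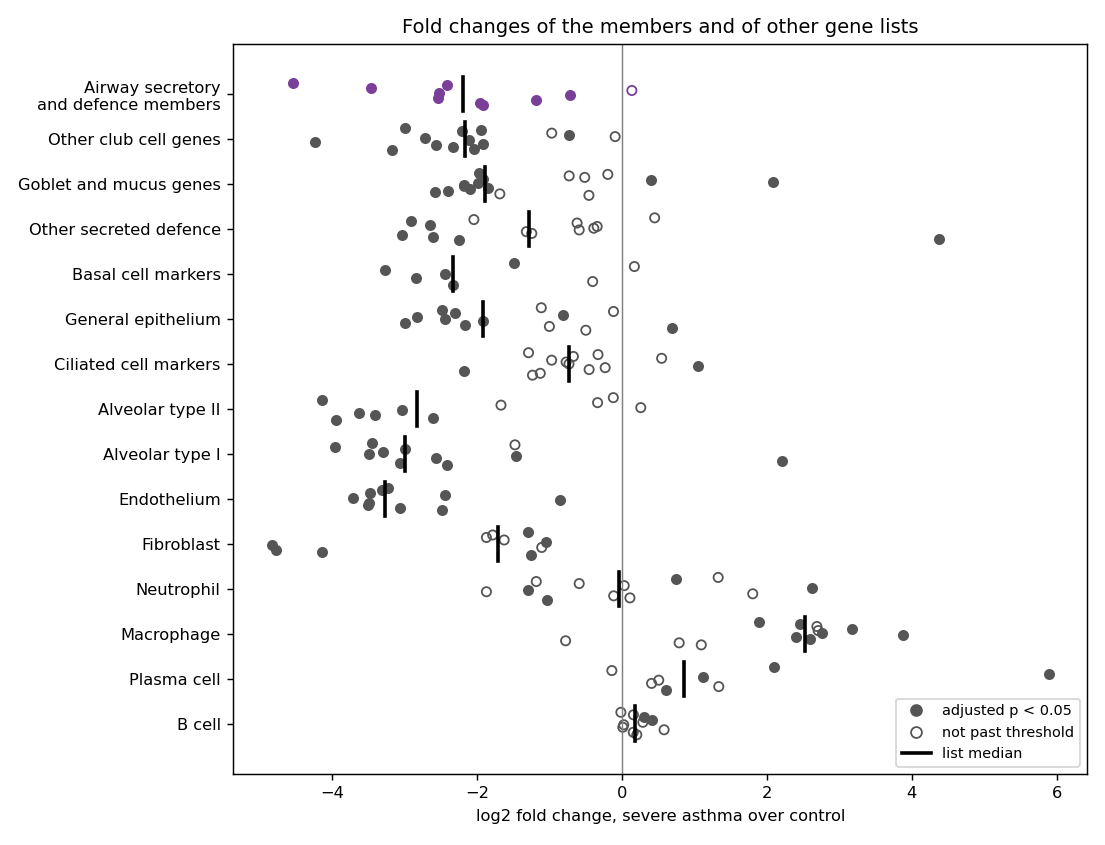
Log2 fold change, severe asthma over control, of the 10 members (purple, top row) and of the genes of 14 other lists, 1 point per tested gene. Filled points passed an adjusted p under 0.05 in the limma fit over all 15759 tested genes, open points did not, and black lines are list medians. The members' median is -2.19, that of the other club cell genes -2.16 and that of the B cell markers 0.18.

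Secreted defence genes outside the members did not all move one way. Of 14 tested, 5 fell and 1 rose (median -1.28), and the falls numbered 3 without control library 3, 2 without severe asthma library 2 or 3, and 3 with edgeR or limma-voom. Slpi, an inhibitor of neutrophil elastase secreted on mucosal surfaces, read 144, 93.0 and 215 in control and 3757, 3233 and 2183 in severe asthma. It rose without overlap, from 150.4 ± 61.1 to 3057 ± 802 (log2 fold change 4.38, SE 0.36, limma adjusted p = 0.00157). The macrophage marker sums given above were also higher in severe asthma, and their part in this rise was not tested. Wfdc2, a relative of Slpi made by airway epithelium, fell from 666 ± 166 to 147 ± 75.8 (-2.25, limma adjusted p = 0.00772), and the mucosal scavenger receptor Dmbt1 fell from 57.5 ± 14.1 to 9.57 ± 6.34 (-2.65, limma adjusted p = 0.00957).

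Of 16 tested genes listed for the antibody side of the IgA pathway that Pigr serves, 6 rose and 1 fell (median 0.51). Over all tested genes 20.7% rose and 14.4% fell. Jchain, the chain that joins IgA into the polymers bound by Pigr, read 100.2, 66.02 and 234 in control and 9309, 7062 and 5047 in severe asthma. The rise on the log2 scale was 5.89 (SE 0.51, limma adjusted p = 0.00189), with an adjusted p of 0.0524 once both libraries numbered 1 were left out. Of 8 plasma cell markers, Jchain among them, 4 rose, against 20.7% of all tested genes. Mzb1, Xbp1 and Derl3 were the other risen markers, while Sdc1, Irf4 (-0.14), Prdm1 and Tnfrsf17 were not called. The marker sums were 8093 to 9842 in control and 14940 to 23250 in severe asthma. Jchain itself gave 9309 of 23250, 7062 of 17910 and 5047 of 14940 in severe asthma libraries 1 to 3. The part of plasma cell RNA in the Jchain rise was not tested. Tgfbr1, a receptor chain for the cytokine that directs switching to IgA, rose from 828 ± 40.4 to 1419 ± 80.8 (0.78, limma adjusted p = 0.000743). Pigr fell in the same libraries, as given above. The constant-region gene Igha was not matched by symbol and is not analysed here.

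Of 18 tested cytokines, receptors and signal carriers known to induce mucosal genes, 4 fell and 1 rose (median -0.09), beside 14.4% and 20.7% of all tested genes. The count of falls was 2 without control library 1 or 3 and 1 without severe asthma library 2 or 3. Il17a, Il22, Il13 and Il4 had at most 1.99 adjusted reads in any library and were below the level for testing.

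The genes whose levels followed 2 members most closely over the 6 libraries were taken from 11353 genes with a mean of at least 50. For Ltf the closest was Krt15 (Pearson r = 0.9986), followed by Rel, Fbxo11, 4930523C07Rik and Strn3, the last at r = 0.9948. For Scgb1a1 it was Avl9 (r = 0.9976), followed by Wipi2, Trpm7, Mtmr12 and Ppp6r3, the last at r = 0.9926. The groups are separate in all of these genes or nearly so, and r mainly spans the difference between groups. Their own log2 fold changes ran from -3.27 for Krt15 and -0.97 for Rel to -0.19 for Wipi2.

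In the authors' deposited term tables, members appeared under several defence terms made from the genes the authors called changed in either direction. Bpifa1, Ltf and Reg3g stood among 21 called genes of 115 in "antimicrobial humoral response" (q = 0.0432), and Scgb1a1, Ltf and Reg3g among 65 of 383 in "secretory granule" (q = 0.00208). Bpifa1, Muc5b, Ltf and Reg3g stood among 49 of 425 in "defense response to bacterium", whose q-value was 0.573. For the 8 members it holds, the authors' deposited table of called genes gave log2 fold changes from -4.64 for Bpifa1 to -1.22 for Scgb1a1.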

How the data were processed

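RNA was measured in 6 libraries, 3 control and 3 severe asthma, grouped by the labels. Per the labels' protocols, libraries were prepared from poly(A) RNA with NEBNext Ultra reagents. Tools listed in the submitters' processing notes are HISAT2 2.1.0, HTSeq 0.11.2 and bcl2fastq, and the build is mm10. Their roles, and whether strand was used, are not given in the sources used here. The authors deposited 84748 mRNA transcripts with a library-size-adjusted signal per library, a table of called genes and term tables. All 432782 values above 0.01 could be rebuilt within 0.001 (100%) from whole reads by edgeR's quantile adjustment with a dispersion of 0.0474. No header names the tool. Columns of log2 fold change, p-value and q-value are the authors' results, per the file headers.

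The main test was limma-trend (limma 3.58.1, R 4.3.3), robust and two-sided, on log2(value + 1) for genes averaging 1 or more, and p was adjusted by Benjamini-Hochberg over 15759 genes (threshold 0.05). This scale understates the change of low genes. The transcript with the highest mean stood for each gene, because isoforms share reads. edgeR 4.0.16, DESeq2 1.42.0 and voom were run on the recovered reads. Depth was 16498219 to 18054903 reads, and reads are not independent molecules. Same-numbered libraries deviated together across genes (r = 0.414, 0.128 and 0.14), which met the rule set for this check (every r over 0.1). Deviations were taken from means of 3 libraries, so r among libraries 2 and 3 depends on r between those numbered 1. Some differently numbered libraries correlated more than those numbered 2 and 3: control 3 with severe asthma 2 at r = 0.2, and control 2 with severe asthma 3 at 0.179. The check therefore cannot settle whether the numbers pair the libraries. The labels do not say that they do, and the main test did not use the numbers. A fit with the number as a block was an alternative. Others were pseudocounts, filters, scaling, leaving out libraries, and the mean over transcripts. Lengths came from GENCODE M21 by RefSeq accession and promoter sequences from RefSeq on GRCm38.p6. The scripts were tested on simulated data.

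The members and 18 gene lists were chosen with earlier results of these data known. Named genes (94) were the members, up to 4 genes per list with the smallest p (2 of highest mean where none passed), up to 3 of highest mean per paralog family, and the 5 nearest to Scgb1a1 and to Ltf. Epcam, Elane, Camp, Bpifa5, Cyp4b1, Cbr2, Aldh1a1, Gabrp, Chad, Cldn10 and the untested cytokines are named outside that rule, after their values were seen. So are Trp63, Ngfr, Tppp3, Foxj1, Ccdc153, Dynlrb2, Sdc1, Irf4, Prdm1, Tnfrsf17, Clca1, Tff2, Gcnt3 and Galnt12. Igha, Trac, Trbc1 and Trbc2 were not matched. The non-coding table was not used.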

Additional observations from a re-analysis of the deposited data

How the results depend on the processing

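The falls of 8 members (Bpifa1, Ltf, Reg3g, Muc5b, Bpifb1, Scgb3a1, Scgb3a2 and Scgb1a1) kept their direction and passed the threshold under each of 18 alternatives, with adjusted p of at most 0.0257. Pigr was called in 14 of 18, and Muc5ac in none of the 17 that tested it. So 8 or 9 members fell at every setting. The fit with the replicate number as a block changed no member's call and gave 3528 risen and 2714 fallen genes, against 3262 and 2263 without it. Over all genes, scaling by total reads gave 1923 risen and 3112 fallen, and moved the median log2 fold change of all tested genes from 0.06 to -0.08. Against that median the members' median of -2.33 changed little. Leaving out 1 library gave 1573 to 3403 risen and 730 to 2337 fallen genes. The lowest counts came without severe asthma library 2 (1573 and 730) and without severe asthma library 3 (1627 and 782), which leave 2 libraries in that group. On the recovered reads edgeR gave 2546 and 2401, DESeq2 2479 and 2884. The list counts without control library 1 were added after seeing the data. With a mean of at least 10 required, Muc5ac was not tested. Muc5ac rests on 1 to 14 reads and on 1 library, since its log2 fold change was -0.66 without severe asthma library 1. Each group holds 3 libraries.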
